A study of Mus musculus with 6 samples.

Results

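Collagens are the main structural proteins of the extracellular matrix, and each collagen molecule is a triple helix wound from chains that are encoded by separate genes. Fibrillar collagens assemble into the fibrils of connective tissue, cartilage and bone, and network collagens form sheets such as the basement membrane that underlies an epithelium. Other classes coat fibrils, form beaded filaments or span the cell membrane. In the inner ear, collagens of the cartilage type are part of the tectorial membrane, the gel that lies over the cochlear hair cells, and the basement membrane chains of Alport syndrome in humans are linked to hearing loss. Chain genes were examined here in the vestibular and the cochlear sensory epithelium of the newborn mouse.

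The members are the genes whose symbol is Col, a number, the letter a and a number. They were read on Affymetrix mouse genome arrays, where a gene is measured by 1 or more probe sets (groups of short oligonucleotide probes). Probe sets annotated to 1 gene named 42 collagen chain genes of 18193 genes in all, through 82 of the 45037 probe sets that are not controls. For each gene the probe set with the highest mean over all 6 arrays was taken. Probe sets were tested down to a mean log2 value of 4.68, which 38 of the 42 genes passed. The other 4 genes, Col6a5, Col10a1, Col17a1 and Col19a1, lay below this filter and are given by their values only.

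There were 3 samples of vestibule and 3 of cochlea, each on its own array. All mice were wild type, of the C3H strain, and were taken on postnatal day 2. Vestibular samples joined the epithelia of the utricle, the saccule and 2 cristae (the anterior and the lateral one). Mesenchyme beneath the epithelia and neurons attached to them were part of the samples of either tissue. Tissue was pooled over 10 to 12 inner ears, with no record here of which pool went on which array. The p-values therefore describe variation among the arrays, part of which may be technical. In such mixed tissue more cells of a type and more RNA per cell cannot be told apart.

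Values are deposited log2 expression values computed by the authors with the robust multiarray average (RMA) method, which carry 1 decimal. A difference is the mean log2 value of the vestibular arrays minus that of the cochlear arrays. A gene was called where limma gave a Benjamini-Hochberg adjusted p under 0.1 over all tested probe sets and the fold was at least 1.3, a log2 difference of at least 0.38. The brightness of a probe set depends on its probes, so levels of different genes were not ranked, and an offset between chains was used only to set the tissues against each other. The number of arrays limits the precision.

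Markers of the labelled tissues were measured first. Hair cell genes were read in both tissues, with Myo7a, a hair cell myosin gene, at 9.23 in the vestibule and 7.77 in the cochlea. Pou4f3, which encodes a hair cell transcription factor, stood at 6.90 in the vestibule and 5.90 in the cochlea. Otog, which encodes a protein of the otolithic and tectorial membranes, stood at 13.03 in the vestibule and 11.53 in the cochlea. Tectb, which encodes a tectorial membrane protein, stood at 12.77 in the vestibule and 14.13 in the cochlea. Correlations between arrays were 0.993 within the vestibule, 0.981 to 0.988 within the cochlea and 0.945 to 0.961 across tissues.

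Collagen genes were more often higher in the vestibule than lower. Of the 38 tested, 14 rose in the vestibule and 2 fell, while 22 were not called. The rises were 36.8% of the tested collagen genes, against 15.1% of all 14184 tested genes, and the falls were 5.26% against 7.97%. All 3 vestibular arrays lay above all 3 cochlear arrays for 16 collagen genes, where 19.9% of all tested genes did so, and below them for 3, where 12.4% of all did. Over all 42 genes the median difference was 0.18, with 27 above 0 and 15 below, beside a median of 0.00 over all 18193 genes. Without vestibule replicate 1, 7 collagen genes were called higher, and 9 without vestibule replicate 2. Calls also fell over all tested probe sets, from 3563 higher to 2359 and 2662. A plain test of each probe set without limma's pooled spread called 6 collagen genes higher and 2 lower. Over all tested probe sets that test called 2195 higher and 1322 lower, where limma called 3563 and 2184. Its share over all tested genes was not computed, so the 15.1% and 7.97% above are not its background.

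**Figure D1:**
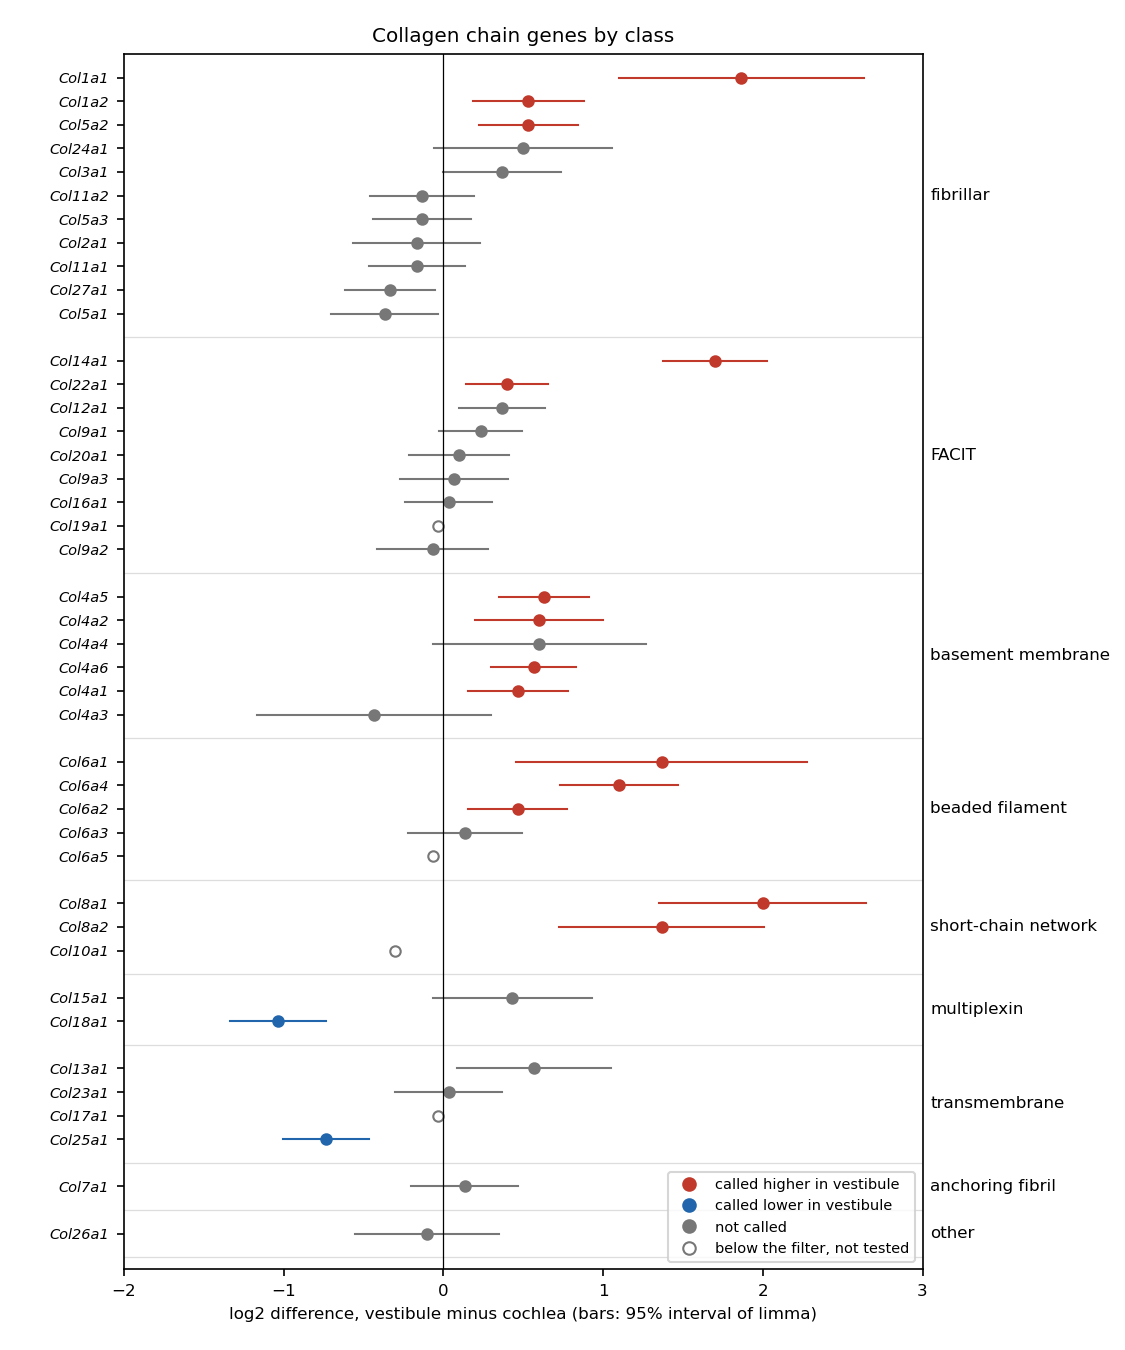
Log2 difference, vestibule minus cochlea, of each of the 42 collagen chain genes (brightest probe set), grouped by class, with 95% intervals of limma from 3 vestibular and 3 cochlear arrays. Red points are the 14 genes called higher in the vestibule, blue the 2 called lower, grey the 22 not called, and open points the 4 genes below the filter, which have no interval.

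Both short-chain network collagens that were tested rose, where 15.1% of all tested genes rose. The median of this class, 1.37 over 3 genes, was the largest among the classes. With so few genes this median is the value of Col8a2 alone. Col8a1 and Col8a2 encode the chains of type VIII collagen, known from Descemet's membrane of the cornea and from blood vessel walls, where it forms hexagonal lattices. Col8a1 read 11.6, 11.2 and 11.1 in the vestibule, against 10.0, 9.1 and 8.8 in the cochlea. Every vestibular array lay more than a whole log2 unit above the highest cochlear array. Its difference of 2.00 was the largest among the collagen genes (standard error, SE, 0.28, limma adjusted p = 0.00150), a 4-fold higher level, and a second probe set gave 1.97. Col8a2 read 8.6, 9.2 and 7.9 in the vestibule, against 7.1, 7.4 and 7.1 in the cochlea, a difference of 1.37 (SE 0.28, limma adjusted p = 0.0111). Here the vestibular arrays spread more than the cochlear ones, and the call was lost in the plain test (adjusted p = 0.136). Col10a1, whose product marks hypertrophic cartilage, read 4.4, 4.4 and 4.1 in the vestibule and 4.4, 4.8 and 4.6 in the cochlea, below the filter.

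The sequence around the annotated start of Col8a1 is shown because this gene had the largest difference of the family. It runs from 250 bases before to 50 after the start in RefSeq, build GRCm38.p6. Capitals mark matches on either strand to the CCAAT box (CCAAT), the GC box (GGGCGG) and the TATA box (TATAAA).
Col8a1 (chr16:57754688-57754987, minus strand): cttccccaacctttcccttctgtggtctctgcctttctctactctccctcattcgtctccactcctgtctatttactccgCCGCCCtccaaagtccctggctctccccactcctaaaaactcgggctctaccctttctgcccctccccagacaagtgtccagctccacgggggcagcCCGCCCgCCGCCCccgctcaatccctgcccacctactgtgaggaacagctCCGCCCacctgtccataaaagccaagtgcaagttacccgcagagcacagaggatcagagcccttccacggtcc
The window holds 4 matches to the GC box, and that of Col8a2 also holds 4. Of 32851 windows of this length over all genes 35.7% held at least 1 GC box, 37.4% a CCAAT box and 13.6% a TATA box. Among 36 windows of 33 collagen genes the share was 61.1% for the GC box, 36.1% for the CCAAT box and 13.9% for the TATA box. A match is a description of the letters and not a binding site.

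Among the fibrillar collagens, both type I chains and 1 of the 3 type V chains, Col5a2, rose in the vestibule. These were 3 of 11 tested genes, where 15.1% of all tested genes rose, and 8 were not called. None was called lower by limma or by the plain test, the plain test called 0 higher, and 2 had a negative difference at an unadjusted p under 0.05. The median difference was -0.13. Col1a1 and Col1a2 encode the chains of type I collagen, the main fibril of bone, tendon and dermis. Col1a1 read 11.5, 11.1 and 10.5 in the vestibule, against 8.9, 9.9 and 8.7 in the cochlea. The tissues did not overlap, although their arrays spread widely (SD 0.50 in the vestibule and 0.64 in the cochlea, n = 3 each). The difference was 1.87 (SE 0.34, limma adjusted p = 0.00540), and a dimmer probe set gave 1.90. In the plain test the adjusted p was 0.109.

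Col1a2 read 14.1, 14 and 13.8 in the vestibule, against 13.7, 13.4 and 13.2 in the cochlea. These arrays lay close to each other, and the difference of 0.53 (SE 0.15, limma adjusted p = 0.0473) was smaller than that of Col1a1. Its other probe sets gave 0.83 and 0.73. The call was lost without vestibule replicate 1 (0.47, adjusted p = 0.201) or 2 (0.52, 0.164) and without cochlea replicate 2 (0.52, 0.116) or 3 (0.42, 0.140), and in the plain test (0.167). Col5a2, a chain of type V collagen, which regulates the width of type I fibrils, read 12.0, 11.8 and 11.7 in the vestibule, against 11.2, 11.5 and 11.2 in the cochlea, a difference of 0.53 (SE 0.14, limma adjusted p = 0.0288). A second probe set of Col5a2 gave -0.10 and was not called, and the mean of both stood at 0.22 (adjusted p = 0.122). Without vestibule replicate 1 the call of Col5a2 was lost (0.45, adjusted p = 0.133), and likewise without cochlea replicate 1 (0.48, 0.106) and in the plain test (0.106). Col3a1, which encodes type III collagen of soft tissues and is the neighbour of Col5a2 on chromosome 1, had a difference of 0.37 (95% interval -0.00 to 0.73) and was not called. Its second probe set gave 0.03, and the first was called at 0.50 without cochlea replicate 2 (adjusted p = 0.0777).

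None of the cartilage fibril chains was called. Col2a1, the chain of type II collagen, read 13.0, 12.9 and 12.9 in the vestibule and 13.0, 13.5 and 12.8 in the cochlea, so that the arrays overlapped. Its difference was -0.17 (95% interval -0.57 to 0.23, limma adjusted p = 0.592). Col11a1 and Col11a2, chains of type XI collagen that join type II in cartilage and whose human genes are linked to deafness, stood at -0.17 (-0.47 to 0.13) and -0.13 (-0.46 to 0.19). Col27a1, a fibrillar chain of cartilage, stood at -0.33 (-0.62 to -0.05) with all vestibular arrays below all cochlear ones, and it was not called (limma adjusted p = 0.114). It was called lower without cochlea replicate 2 (-0.38, adjusted p = 0.0922), while its dimmer probe set gave 0.13. A dimmer probe set of Col11a1 gave 0.10. Of the remaining fibrillar chains, Col5a1 stood at -0.37, Col5a3 at -0.13 and Col24a1, a chain of developing bone, at 0.50 (95% interval -0.06 to 1.06). Without cochlea replicate 1, Col5a1 was called lower (-0.50, adjusted p = 0.0564) and Col24a1 higher (0.75, adjusted p = 0.0923). The probe sets of Col5a1 ran from -0.37 to 0.13.

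Bone genes were also higher in the vestibule. Of 10 bone genes listed, 6 had a probe set of their own and were tested, and 5 of these were higher, where 15.1% of all tested genes were. They were led by Ibsp, which encodes bone sialoprotein, at 4.40. None was lower by limma, with 0 at an unadjusted p under 0.05 and 0 in the plain test. Of the higher genes, Dlx5 had a cochlear mean of 4.67, under the lowest mean tested, 4.68, and the arrays of Dmp1 overlapped between tissues. The count of higher bone genes was 4 without vestibule replicate 1 or 2 or cochlea replicate 2 or 3, and 6 without cochlea replicate 1. The mean log2 level of the bone genes was 7.13 to 8.12 on the vestibular arrays and 5.30 to 6.45 on the cochlear arrays. The list was highest in replicate 1 of both tissues. Col1a1 was highest in vestibule replicate 1 and cochlea replicate 2 at its brightest probe set, and in replicate 2 of both tissues at the dimmer one. Col1a2 was highest in replicate 1 of both tissues at its brightest probe set. Of the 14 mesenchyme genes 5 were higher (3 without vestibule replicate 3) and 2 lower, against 15.1% higher and 7.97% lower over all tested genes. The higher ones were led by Pdgfra at 0.93, and the lower ones were Lum at -0.97 and Fn1 at -0.80. The mean level of the 14 genes was 10.01 to 10.18 in the vestibule and 9.79 to 10.08 in the cochlea, so that the ranges overlapped. The part of bone or mesenchyme in the collagen differences was not tested.

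**Figure D2:**
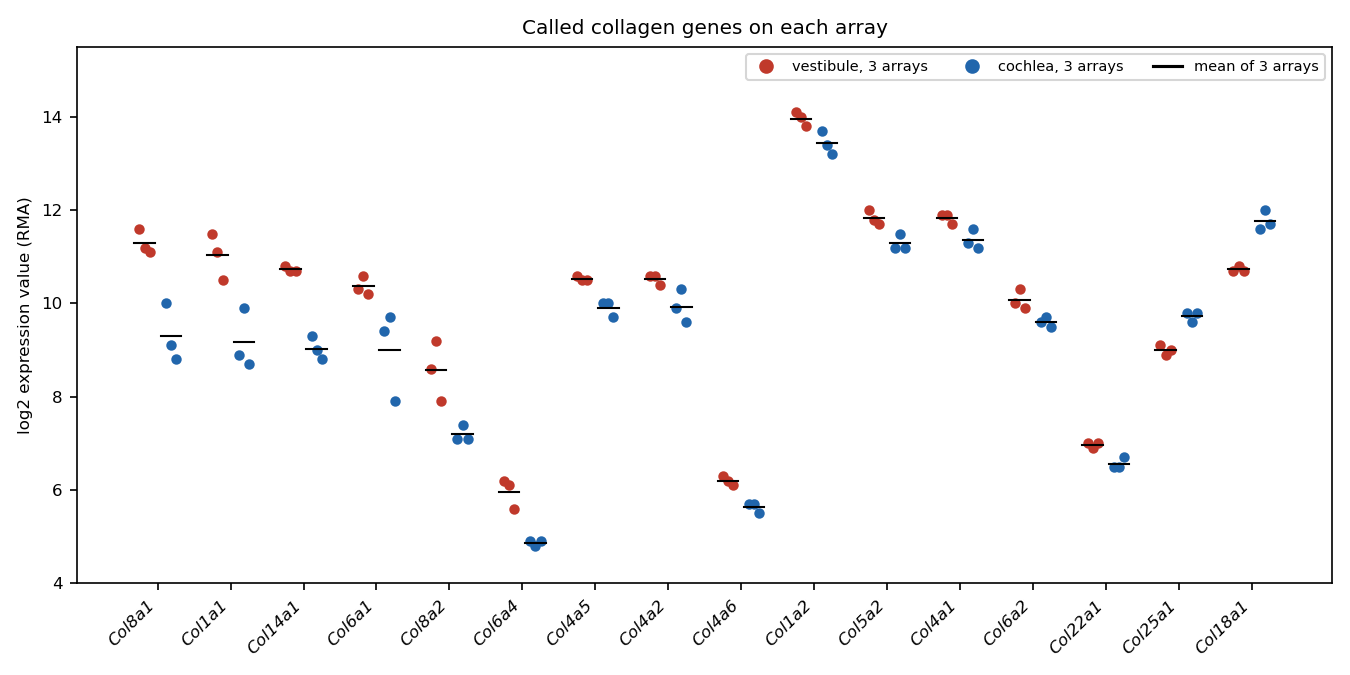
Log2 expression values of the 16 called collagen genes, 1 point for each of the 3 vestibular (red) and the 3 cochlear (blue) arrays, with bars at the means. The red points lie above the blue for the 14 genes from Col8a1 to Col22a1 and below them for Col25a1 and Col18a1, and the cochlear points of Col6a1 spread from 7.9 to 9.7.

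Fibril-associated collagens with interrupted triple helices (FACIT collagens) lie on the surface of fibrils. Of 9 such genes 8 were tested, 2 rose in the vestibule (25%, against 15.1% of all tested genes) and 6 were not called. None was lower by limma, and both the unadjusted p under 0.05 and the plain test gave 0. Col14a1, whose product binds type I fibrils through decorin, read 10.8, 10.7 and 10.7 in the vestibule, against 9.3, 9.0 and 8.8 in the cochlea. The groups lay far apart with little spread, with a difference of 1.70 (SE 0.14, limma adjusted p = 8.2e-05), and a second probe set gave the same 1.70. Decorin is encoded by Dcn, which stood at 12.90 in the vestibule and 12.37 in the cochlea (0.53, limma adjusted p = 0.0148). Dcn belongs to the mesenchyme list, in which Lum (-0.97) and Fn1 (-0.80) were called lower.

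Col22a1, known from the junctions of muscle and tendon, read 7.0, 6.9 and 7.0 in the vestibule, against 6.5, 6.5 and 6.7 in the cochlea. Its difference was 0.40 (SE 0.11, limma adjusted p = 0.0442), near the minimum fold. Dimmer probe sets of Col22a1 gave larger differences of 1.23 and 0.93, both called, and the mean of the probe sets stood at 0.86. The call at the brightest probe set was lost without vestibule replicate 1 (0.38, adjusted p = 0.143) or 3 (0.38, 0.139), without cochlea replicate 1 (0.37, 0.106) or 2 (0.37, 0.0724), and in both other scalings, where the fold fell under the minimum (0.37 after median centring and 0.36 after a second quantile normalization). Col12a1, which also binds type I fibrils, passed the p threshold at its brightest probe set but not the fold (0.37, limma adjusted p = 0.0707), and was called without cochlea replicate 1 (0.42, adjusted p = 0.0836). Another probe set of Col12a1 read 7.6, 8.2 and 7.1 in the vestibule, against 6.2, 6.4 and 5.7 in the cochlea, and was called at 1.53 (limma adjusted p = 0.00555). For both genes the size of the difference varied with the probe set.

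None of the type IX collagen genes, whose product covers type II fibrils, was called. Col9a1 stood at 0.23 (95% interval -0.02 to 0.49), Col9a2 at -0.07 (-0.41 to 0.28) and Col9a3 at 0.07 (-0.27 to 0.40). The vestibular arrays of Col9a1 read 13.7, 13.6 and 13.7 and the cochlear ones 13.5, 13.5 and 13.3, without overlap, but the fold was under the minimum and the adjusted p was 0.219. Its second probe set gave 0.47, also not called, and the mean of both stood at 0.35 (adjusted p = 0.175). Of the remaining FACIT genes Col16a1 stood at 0.03 and Col20a1 at 0.10, and Col19a1 lay below the filter with 4.53 in the vestibule and 4.57 in the cochlea. Cartilage markers were called in both directions. Of 10 tested 4 were higher and 3 lower, against 15.1% and 7.97% of all tested genes, from Matn4 at 1.93 to Epyc, the small proteoglycan epiphycan, at -6.33. Over the 12 genes of this list the median difference was 0.27, with 7 above 0 and 5 below. Its mean level, 7.61 to 7.69 on vestibular arrays against 8 to 8.23 on cochlear ones, includes the large falls of Epyc and Matn1 (-3.93). The part of cartilage in the collagen values was not tested.

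Basement membrane chains rose in the vestibule for 4 of 6 genes, where 15.1% of all tested genes rose, and the remaining 2 were not called. None was lower in limma, where an unadjusted p under 0.05 also gave 0, as did the plain test. The 6 type IV genes lie in the genome as head-to-head pairs, and Col4a1 with Col4a2 encodes the chains present in nearly all basement membranes. Col4a1 read 11.9, 11.9 and 11.7 in the vestibule, against 11.3, 11.6 and 11.2 in the cochlea. Col4a2 read 10.6, 10.6 and 10.4 in the vestibule, against 9.9, 10.3 and 9.6 in the cochlea. The vestibular arrays lay above the cochlear arrays for both genes. Among cochlear arrays replicate 2 was highest and replicate 3 lowest for both, as for many collagen genes, of which 47.4% were highest in replicate 2 alone and 60.5% lowest in replicate 3 alone. The difference was 0.47 for Col4a1 (SE 0.14, limma adjusted p = 0.0520) and 0.60 for Col4a2 (SE 0.18, limma adjusted p = 0.0520). A second probe set of Col4a1 gave 0.73.

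These calls were near the threshold. That of Col4a1 was lost without vestibule replicate 1 (0.43, adjusted p = 0.191) or 2 (0.43, 0.175), without cochlea replicate 1 (0.43, 0.156) or 3 (0.38, 0.140), and after median centring (0.43, 0.101). That of Col4a2 was lost without vestibule replicate 1 (0.57, adjusted p = 0.212), 2 (0.57, 0.189) or 3 (0.67, 0.127) and without cochlea replicate 1 (0.58, 0.167) or 3 (0.43, 0.144). Both calls were also lost in the plain test (0.144 for Col4a1 and 0.207 for Col4a2).

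The chains encoded by Col4a5 and Col4a6, neighbours on the X chromosome, join in the basement membranes of smooth muscle and of some epithelia. Col4a5 read 10.6, 10.5 and 10.5 in the vestibule, against 10.0, 10.0 and 9.7 in the cochlea, a difference of 0.63 (SE 0.12, limma adjusted p = 0.00818). Col4a6 read 6.3, 6.2 and 6.1 in the vestibule, against 5.7, 5.7 and 5.5 in the cochlea, a difference of 0.57 (SE 0.12, limma adjusted p = 0.0111). Both had little spread, and neither call was lost under any alternative that tested them. A dimmer probe set of Col4a5 gave 1.07 and one of Col4a6 gave 0.53.

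The windows around the starts of these pairs are shown because their members had like differences. The starts of Col4a1 and Col4a2 lie 21 bases apart on opposite strands, so that the window of Col4a2 holds both, and those of Col4a5 and Col4a6 lie 1343 bases apart. Capitals mark the same motifs as for Col8a1.
Col4a2 (chr8:11312555-11312854, plus strand): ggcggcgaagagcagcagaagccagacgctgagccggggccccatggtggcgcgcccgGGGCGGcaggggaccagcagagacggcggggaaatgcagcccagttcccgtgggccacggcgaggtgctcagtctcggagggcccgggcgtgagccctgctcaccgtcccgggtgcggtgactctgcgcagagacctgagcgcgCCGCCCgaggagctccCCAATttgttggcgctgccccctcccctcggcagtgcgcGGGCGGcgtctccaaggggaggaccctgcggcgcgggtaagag
Col4a5 (chrX:141475169-141475468, plus strand): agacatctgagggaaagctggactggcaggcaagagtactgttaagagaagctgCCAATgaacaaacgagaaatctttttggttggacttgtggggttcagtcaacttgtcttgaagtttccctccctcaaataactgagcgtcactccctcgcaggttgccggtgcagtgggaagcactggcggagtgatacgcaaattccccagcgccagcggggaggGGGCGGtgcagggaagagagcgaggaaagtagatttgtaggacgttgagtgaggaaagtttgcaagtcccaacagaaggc
Col4a6 (chrX:141474027-141474326, minus strand): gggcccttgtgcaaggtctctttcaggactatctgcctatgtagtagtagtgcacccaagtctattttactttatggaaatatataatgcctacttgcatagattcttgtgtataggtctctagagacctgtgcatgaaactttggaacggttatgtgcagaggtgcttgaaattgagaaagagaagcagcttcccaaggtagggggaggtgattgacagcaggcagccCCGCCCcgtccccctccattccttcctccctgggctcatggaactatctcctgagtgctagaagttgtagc
The window of Col4a2 holds 1 CCAAT box and 3 GC boxes, that of Col4a5 1 of each and that of Col4a6 1 GC box.

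Col4a3 and Col4a4 encode, with Col4a5, the chains that are altered in human Alport syndrome. Col4a3 read 6.7, 6.4 and 6.2 in the vestibule, against 7.7, 6.6 and 6.3 in the cochlea, a difference of -0.43 (95% interval -1.17 to 0.30). Col4a4 read 9.1, 8.5 and 8.5 in the vestibule, against 8.8, 7.7 and 7.8 in the cochlea, a difference of 0.60 (-0.07 to 1.27). For both genes replicate 1 was the highest array in each tissue, and the arrays of the tissues overlapped. Neither was called (limma adjusted p = 0.428 for Col4a3 and 0.223 for Col4a4). Without cochlea replicate 1 Col4a3 stood at -0.02 (limma adjusted p = 0.958), whereas with array weights it was called lower at -0.82 (limma adjusted p = 0.0827). Without cochlea replicate 1 the difference of Col4a4 was 0.95 and called (limma adjusted p = 0.0421). With the replicate number as a block Col4a4 was called at 0.60 (limma adjusted p = 0.0808), although the numbers were not shown to pair the arrays. Dimmer probe sets of Col4a4 gave 0.23 and -0.03, the last of these below the filter.

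Endothelial and mural cells, which lie on basement membranes, also had higher markers in the vestibule. Of 11 tested 7 were higher, against 15.1% of all tested genes, led by the VEGF receptor gene Kdr at 2.97, and Emcn, which encodes endomucin, was lower at -1.57, where 7.97% of all tested genes were lower. The mean level of the 12 genes was 7.42 to 7.56 in the vestibule and 6.59 to 6.73 in the cochlea, and Pecam1 lay below the filter. Of 7 Schwann cell genes 3 were higher and 1 lower (0 lower without vestibule replicate 2 or 3 or cochlea replicate 1 or 2), against 15.1% and 7.97% of all tested genes, with a mean level of 10.73 to 11.09 in the vestibule and 10.09 to 10.39 in the cochlea. The part of these cells in the differences of the type IV and type VIII chains was not tested.

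The chains of the beaded filament, type VI collagen, rose for 3 of 4 tested genes, where 15.1% of all tested genes rose. None was lower by limma or the plain test, with 0 at an unadjusted p under 0.05. Type VI collagen forms microfibrils near the cell surface of many connective tissues. Col6a1 read 10.3, 10.6 and 10.2 in the vestibule, against 9.4, 9.7 and 7.9 in the cochlea. Cochlea replicate 3 lay far below the other cochlear arrays, and the difference was 1.37 (SE 0.40, limma adjusted p = 0.0507), or 0.82 (adjusted p = 0.0323) without that array. The call of Col6a1 was lost without vestibule replicate 1 (1.40, adjusted p = 0.196), 2 (1.25, 0.213) or 3 (1.45, 0.169), without cochlea replicate 1 (1.57, 0.119) and in a fit that blocked on the replicate number (1.37, 0.111). It was lost in the plain test too (adjusted p = 0.254).

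Col6a2 read 10.0, 10.3 and 9.9 in the vestibule, against 9.6, 9.7 and 9.5 in the cochlea, a difference of 0.47 (SE 0.14, limma adjusted p = 0.0488). Its second probe set gave 0.77 and carries a suffix for probes shared with other sequences. The call of Col6a2 was lost without vestibule replicate 1 (0.50, adjusted p = 0.133) or 2 (0.35, 0.156) and without cochlea replicate 1 (0.47, 0.130) or 3 (0.42, 0.140), and in the plain test (0.136). Col6a3, the third chain of the main type VI trimer, stood at 0.13 (95% interval -0.22 to 0.49) and was not called. Col6a4, a chain of the same family in mice, read 6.2, 6.1 and 5.6 in the vestibule, against 4.9, 4.8 and 4.9 in the cochlea, a difference of 1.10 (SE 0.16, limma adjusted p = 0.00189). Its cochlear arrays lay just above the lowest mean tested, 4.68, and the mean of its 2 probe sets, of which the dimmer lay below the filter, stood at 0.50. Col6a5 read 3.70 in the vestibule and 3.77 in the cochlea, below the filter.

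The genes that fell in the vestibule came from 2 other classes, 1 of 2 tested multiplexin genes and 1 of 3 tested transmembrane genes. Over all tested genes 7.97% were lower. Col18a1 encodes a multiplexin of basement membranes that carries heparan sulfate and from which endostatin is cut. It read 10.7, 10.8 and 10.7 in the vestibule, against 11.6, 12.0 and 11.7 in the cochlea. All cochlear arrays were well above the highest vestibular one, and the difference was -1.03 (SE 0.13, limma adjusted p = 8.2e-04), a level 2.05 times higher in the cochlea. A second probe set gave -1.07. The related multiplexin gene Col15a1 stood at 0.43 (95% interval -0.06 to 0.93) and was not called.

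RefSeq gives Col18a1 start sites in 2 windows, shown because this gene had the largest fall. The upstream one holds 1 CCAAT box and 3 GC boxes, and the downstream one holds none of the motifs searched. Which start the probe sets read was not tested.
Col18a1 upstream (chr10:77166481-77166780, minus strand): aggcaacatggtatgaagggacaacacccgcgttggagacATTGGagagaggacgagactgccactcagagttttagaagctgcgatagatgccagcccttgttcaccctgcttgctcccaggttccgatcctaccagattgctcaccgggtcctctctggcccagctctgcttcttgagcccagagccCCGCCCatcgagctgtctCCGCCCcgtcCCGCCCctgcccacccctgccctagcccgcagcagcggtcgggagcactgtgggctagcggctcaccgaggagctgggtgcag
Col18a1 downstream (chr10:77113656-77113955, minus strand): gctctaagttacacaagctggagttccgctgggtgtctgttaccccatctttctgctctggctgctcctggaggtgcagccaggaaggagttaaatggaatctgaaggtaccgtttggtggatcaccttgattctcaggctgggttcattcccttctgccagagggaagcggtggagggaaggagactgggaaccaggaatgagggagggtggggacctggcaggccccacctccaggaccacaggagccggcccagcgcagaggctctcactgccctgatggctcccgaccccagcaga

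Among the transmembrane collagens Col25a1, which is expressed by neurons and is needed for motor innervation of muscle in mice, fell in the vestibule. It read 9.1, 8.9 and 9.0 in the vestibule, against 9.8, 9.6 and 9.8 in the cochlea, a difference of -0.73 (SE 0.12, limma adjusted p = 0.00289). A dimmer probe set gave -0.13 and was not called, and the mean of both stood at -0.43 (adjusted p = 0.00740). Of 7 neuronal marker genes tested 6 were lower in the vestibule, where 7.97% of all tested genes were, with a mean level of 7.13 to 7.38 there and 8.24 to 8.70 in the cochlea. The part of neurons in the fall of Col25a1 was not tested. Col13a1, a collagen of the neuromuscular junction, stood at 0.57 (95% interval 0.09 to 1.05, limma adjusted p = 0.116) and was not called, but was without vestibule replicate 3 (0.75, adjusted p = 0.0928). Col23a1 stood at 0.03. Col17a1, a collagen of epithelial attachment to the basement membrane, read 3.73 in the vestibule and 3.77 in the cochlea, below the filter. Col7a1, the chain of the anchoring fibrils of skin, stood at 0.13, and Col26a1 at -0.10.

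Probe sets of 1 gene were not called in opposite directions. There were 27 genes with more than 1 probe set. Of the 40 probe sets other than the brightest, 26 were tested, 12 of them called higher and 1 lower. Over all probe sets of the series 12.0% were called higher and 7.37% lower. With a gene counted where any of its probe sets was called, 15 genes were higher and 2 lower, the added one being Col12a1. The share of all genes called under this rule was not computed, so these 2 counts have no background here.

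**Figure D3:**
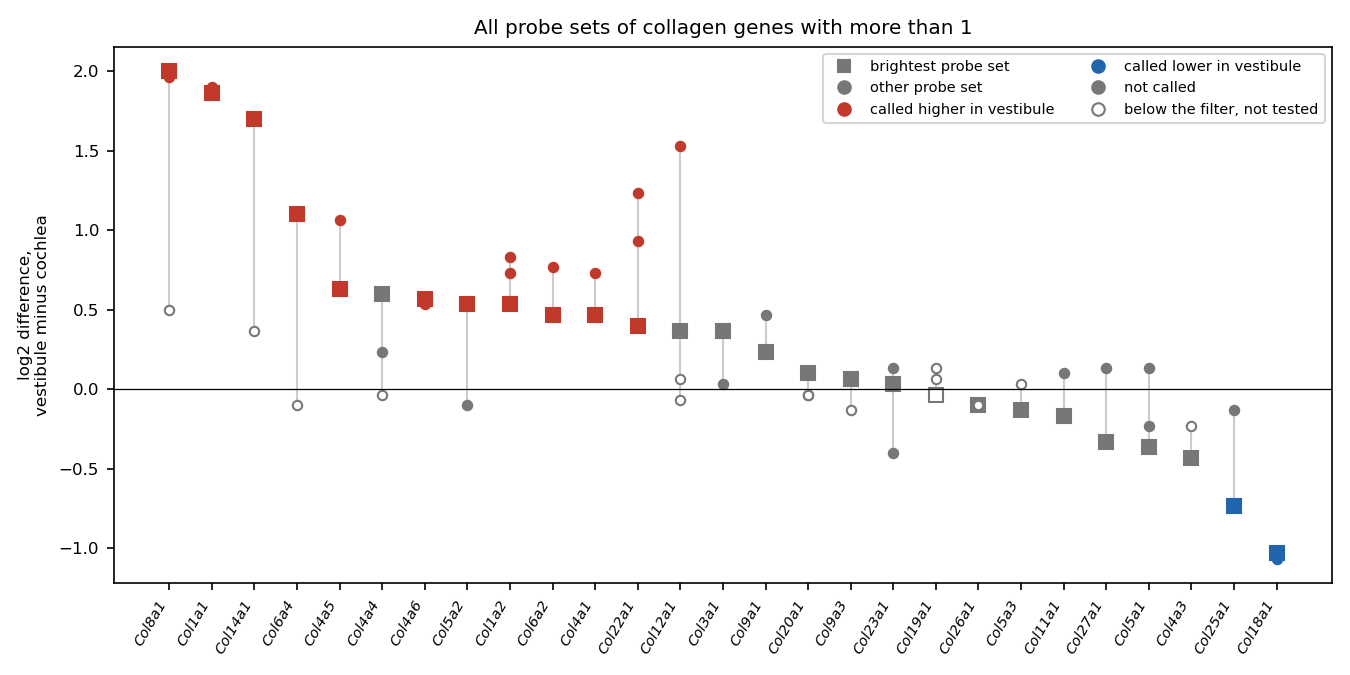
Log2 difference, vestibule minus cochlea, of every probe set of the 27 collagen genes with more than 1, from 3 arrays of each tissue. Squares are the brightest probe sets and circles the others, red where called higher, blue where called lower, grey where not called and open below the filter. The probe sets of Col12a1 spread from -0.07 to 1.53, while those of Col1a1 lie at 1.87 and 1.90.

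Chains that join in 1 molecule, or whose genes lie head to head, were compared within each array over 12 pairs. For each pair the value of the second chain was subtracted from that of the first, and the 3 vestibular arrays were set against the 3 cochlear arrays by a two-sided exact permutation test, whose smallest possible p is 0.1. No pair can therefore pass an adjusted threshold of 0.1 here, and the values are descriptions of unequal change. Col1a1 minus Col1a2 was -2.6, -2.9 and -3.3 in the vestibule, against -4.8, -3.5 and -4.5 in the cochlea. The arrays did not overlap, with a shift of 1.33 (exact p = 0.1, adjusted over the pairs 0.2). The dimmer probe set of Col1a1 and those of Col1a2 had differences of 1.90, 0.83 and 0.73.

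Other pairs without overlap were Col5a1 with Col5a2 (shift -0.90), Col4a3 with Col4a4 (-1.03), Col6a1 with Col6a2 (0.90), Col6a1 with Col6a3 (1.23) and Col9a1 with Col9a2 (0.30), each at exact p = 0.1 and 0.2 after adjustment. Col6a1 minus Col6a2 was 0.3 on all vestibular arrays, against -0.2, 0.0 and -1.6 in the cochlea, and the shift was 0.40 without cochlea replicate 3. Without the same array Col6a1 with Col6a3 shifted by 0.78, and without cochlea replicate 2 Col9a1 with Col9a2 shifted by 0.18. For Col4a3 minus Col4a4 the values were -2.4, -2.1 and -2.3 in the vestibule, against -1.1, -1.1 and -1.5 in the cochlea. The offset was thus steady within each tissue although both genes varied between arrays. With the mean of their probe sets the shift of Col4a3 with Col4a4 was -0.60, and that of Col5a1 with Col5a2 was -0.37.

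The remaining pairs overlapped. Col2a1 minus Col11a1 averaged 1.07 in the vestibule and 1.07 in the cochlea, a shift of 0.00, and Col11a1 with Col11a2 shifted by -0.03. Col4a5 minus Col4a6 ranged from 4.3 to 4.4 in the vestibule and from 4.2 to 4.3 in the cochlea, a shift of 0.07 (exact p = 0.6). The shift was -0.13 for Col4a1 with Col4a2, 0.63 for Col8a1 with Col8a2 and 0.17 for Col9a1 with Col9a3. That of the type VIII pair was 1.00 without vestibule replicate 2, 0.40 without vestibule replicate 3 and 1.03 without cochlea replicate 1. Without cochlea replicate 2, Col2a1 with Col11a1 shifted by 0.12. These shifts also varied with the probe sets used. With the mean of each gene's probe sets the shift was 0.30 for Col4a5 with Col4a6 and 0.35 for Col9a1 with Col9a3. It was 0.10 for Col11a1 with Col11a2, 0.00 for Col4a1 with Col4a2, 0.12 for Col8a1 with Col8a2 and -0.13 for Col2a1 with Col11a1.

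**Figure D4:**
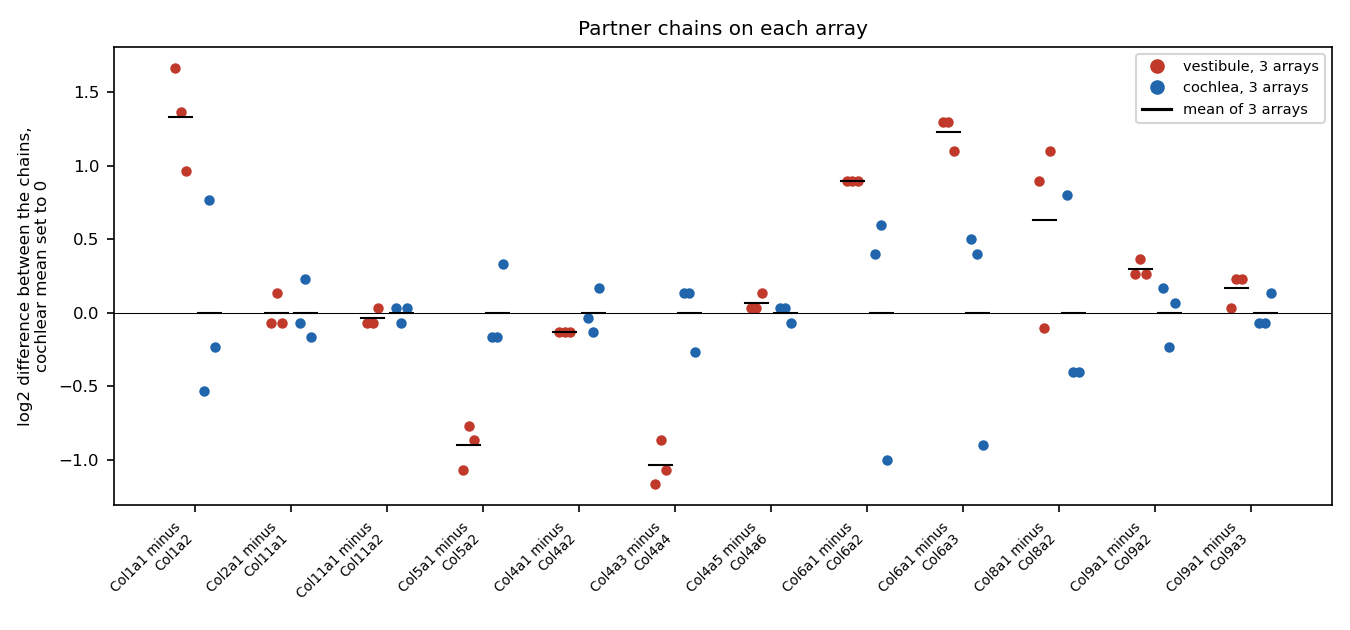
Log2 value of the first chain minus that of its partner for 12 pairs, 1 point for each of the 3 vestibular (red) and 3 cochlear (blue) arrays, shown relative to the cochlear mean of the pair, with bars at the means. The points of Col1a1 and Col1a2 lie 1.33 apart in the mean, whereas those of Col2a1 and Col11a1 share 1 mean.

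Genes that fold, crosslink and trim collagen were called in both directions. Of 27 tested 5 were higher in the vestibule and 5 lower, 18.5% each, against 15.1% higher and 7.97% lower over all tested genes, and the median over 28 genes was 0.03. The higher ones were led by Plod1, a lysyl hydroxylase gene, and Pcolce, which encodes an enhancer of propeptide removal, at 0.93 each, followed by Lox, which encodes the crosslinking enzyme lysyl oxidase, at 0.83. Lower ones were led by P4ha2, a prolyl hydroxylase gene, at -4.40 and Pcolce2, related to Pcolce, at -3.37, followed by Adamts3, which encodes a procollagen peptidase, at -0.97. The count of higher genes was 2 without vestibule replicate 3, and 3 without vestibule replicate 1 or 2 or cochlea replicate 1, with 5 lower each time. Serpinh1, which encodes the collagen chaperone HSP47, stood at 0.33 (limma adjusted p = 0.103). Of 8 collagen receptor genes tested 1 was higher, near the 15.1% of all tested genes, Adgrg1, an adhesion receptor for type III collagen, at 1.20, and none was lower in limma (2 at an unadjusted p under 0.05 and 0 in the plain test). Without cochlea replicate 1 the higher receptor genes numbered 2, and without cochlea replicate 2 there was 1 lower.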

How the data were processed

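RNA of 3 vestibular and 3 cochlear samples was amplified by the authors and read on 1 Affymetrix array each. The deposited values are log2 expression values, which the authors computed by RMA with quantile normalization. For RMA, and for MAS5, the source of the Present calls, no version is stated in the sources read. Values were taken as deposited, with 1 decimal and array medians of 5.6 to 5.7.

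Names came from a platform annotation table, with symbols updated by Entrez number. After 64 controls were set aside, 34945 probe sets had 1 gene, 932 had several and 9160 had none. Since Present calls were not used here, as many probe sets as the study kept were taken in order of mean value. Tissues were compared by limma version 3.58.1 under R version 4.3.3, with linear models and moderated two-sided tests, and intervals are at 95%. Tables were read by data.table version 1.17.8. The fit was tested on simulated data. Figures were drawn by matplotlib 3.10.9 under Python 3.11.15, where numpy 2.4.6 and pandas 2.3.3 handled the tables. Start site sequences are from RefSeq.

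The members and lists were chosen with earlier results of these data known. Every collagen gene is named and called ones are given in full. From each list at most 3 called genes are named in each direction. The lists are textbook markers of 9 tissues or cell types, plus collagen processing and collagen receptors. Of the lists given only here, supporting cells had 1 of 8 tested genes higher and 3 lower, and hair cells 5 of 7 higher. The tectorial and otolithic membranes had 1 of 4 higher and 2 lower. Over all tested genes 15.1% were higher and 7.97% lower.

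Alternatives changed the filter (none, or the 20000 probe sets of highest mean), the scaling (centring on the median, or quantile normalization once more), the test (a plain t-test, limma with trend, array weights or a block on the replicate number), the thresholds (an adjusted p of 0.05, or no fold) and the probe sets (their mean per gene, or those without the suffixes _x_at and _s_at). Each array was also left out. After seeing the data, noise of at most 0.05 on every value, and calls from any probe set of a gene, were added.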

Additional observations from a re-analysis of the deposited data

How the results depend on the processing

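The count of collagen genes higher in the vestibule was 14. It was 6 in the plain t-test and 7 to 13 when 1 array was left out, lowest without vestibule replicate 1. Over all tested probe sets 3563 were called higher, with 2195 in the plain t-test and 2359 without vestibule replicate 1. The count of lower genes was 2, and it was 4 after a second quantile normalization, with Col5a1 and Col27a1 added, and 2 to 3 when 1 array was left out. Lower calls over all tested probe sets also rose with that normalization, from 2184 to 2847, while higher calls fell to 3249. The median difference over all 42 genes was 0.18, between 0.15 and 0.26 in the alternatives run for it. Of the 16 called genes 7 kept their call in each alternative that tested them, namely Col4a5, Col4a6, Col6a4, Col8a1, Col14a1, Col18a1 and Col25a1. The other 9 lost it in at least 1, and no called gene changed sign. Among genes not called 8 gained a call in at least 1 alternative, and 7 near 0 changed sign or reached 0 without a call. The cause of these changes was not tested.

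With the replicate number as a block 14 collagen genes were higher and 2 lower, 13 of the higher ones shared with the unblocked fit. The block took away the call of Col6a1 and added that of Col4a4. Deviations of same-numbered arrays correlated at 0.217, 0.153 and -5.5e-04, so the numbers were not taken to pair the arrays. Col6a5, Col10a1, Col17a1 and Col19a1 lay below the filter and have no test.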

Other observations

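Collagen genes shared a pattern among arrays of 1 tissue. Cochlea replicate 3 was the sole lowest cochlear array for 23 of the 38 tested collagen genes (60.5%), against 34.0% of all tested genes, and cochlea replicate 2 the sole highest for 18 (47.4%), against 31.2%. Among vestibular arrays replicate 1 was the sole highest for 21 collagen genes (55.3%), against 24.9% of all, and replicate 3 the sole lowest for 17 (44.7%), against 24.5%. The mean deviation of the collagen genes from their tissue mean was 0.09 in vestibule replicate 1, -0.11 in vestibule replicate 3 and -0.17 in cochlea replicate 3. The mean level of all 42 collagen genes was 8.905 to 9.102 on the vestibular arrays and 8.552 to 8.786 on the cochlear arrays, without overlap. Which genes of the dissected tissue vary with the collagens was not tested.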
